A study of Mus musculus with 6 samples.

Results

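The genes of the tumour necrosis factor (TNF) ligand and receptor superfamilies were followed in macrophages cultured from the bone marrow of mice (BMDM), which are primary cells and no cell line. Members were chosen by symbol, with earlier results of these data known. They were every row of the deposited expression table whose name starts with Tnfsf or with Tnfrsf, or with Traf followed by a digit. Tnf, Cd40, Fas, Ltbr, Cd27, Eda2r and Ltb were taken as well. Tnfsf4 was left out by the rule, and Lta, which the rule also names, had no row in the data used here. This gave 41 of the 14005 rows: 11 ligand genes, 19 receptor genes, 7 genes of the TRAF adaptors, 3 genes of proteins that bind TRAFs (Traf3ip1, Traf3ip2 and Traf3ip3) and 1 antisense RNA, Tnfsf13os. All 41 members had a mean of at least 10 normalized counts, the minimum for testing.

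The study sequenced polyA-selected RNA from 2 groups of 3 libraries, and its stated question was how loss of thioredoxin-1, a cytosolic disulfide reductase, affects NLRP1 inflammasome genes. The controls were wild type. Cells labelled Txn1 KO combined the Txn1 allele Txn1tm1.1Ees/J with the line B6.129P2-Lyz2tm1(cre)lfo/J, in which a Cre recombinase is inserted into Lyz2, a gene that macrophages and other myeloid cells express. Cells of both groups carry the strain label C57BL/6J, come from pooled male and female mice, and have no treatment or age in the labels. The controls carry no Cre, so the Cre insertion and the Txn1 allele cannot be told apart. Nothing in the labels tells whether replicates were separate cultures or mice, and p-values therefore cover only the spread among these libraries, which may be technical.

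Ligands of this superfamily are mostly trimeric proteins of the cell surface that proteases can release. They bind receptors with cysteine-rich outer domains. Some receptors carry a death domain that leads to caspase activation, and others recruit TRAF adaptors that lead to NF-kB and kinase signalling. In macrophages the superfamily is known for the secretion of TNF, for signals that shape survival and osteoclast formation, and for ligands that act on B and T cells.

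The libraries held 22508616 to 38726953 reads in the listed genes, so that 3 reads, the smallest level told from 0, equalled 2.33 to 4.04 normalized counts (counting error only). Lyz2, which the Cre insertion interrupts, fell in all 3 libraries labelled Txn1 KO (log2 -6.96). Txn1 itself, counted over the whole gene, was not called (log2 -0.03, interval -0.10 to 0.05; mean ± SD over 3 libraries each, 12580 ± 532 and 12349 ± 367; limma adjusted p = 0.686), so the whole-gene count does not check the deletion. Wild-type replicate 1 and replicate 3 labelled Txn1 KO carried hepatocyte transcripts (summed level of 5 listed markers 908 and 844, against 13.2 to 26.8 in the other libraries). All 8 macrophage markers examined were listed, with a summed level of 145294 to 151905 normalized counts over the libraries; Itgam and Mertk rose, and Cd68, Fcgr1 and Cd14 fell. Of 8 stromal markers 6 fell, and their sum went from 2019 to 2314 in wild type to 931 to 1573. Of 7 osteoclast markers 5 were listed and all 5 rose, with sums of 18132 to 18291 in wild type, against 20533 to 22744 under the Txn1 KO label. Most of this sum was Atp6v0d2 (means of 15239 and 17325). Of 6 dendritic cell markers 2 rose, Itgax and Ccr7, and the sum was 3623 to 3944 in wild type, against 5531 to 6247 under the Txn1 KO label. Most of this sum was Itgax alone (means of 3524.5 and 5567.9). Flt3 (log2 0.88), Zbtb46 (-0.29), Xcr1 (-0.39) and Siglech (-0.67) were near the floor and did not pass. Of 8 T cell markers 3 were listed (Cd4, Cd5 and Lck) at a sum of 184 to 308, and Cd4 fell. Of 5 neutrophil markers listed 2 fell, S100a9 and Ngp (both log2 -0.83), with sums of 291 to 316 in wild type, against 256 to 297 under the Txn1 KO label. Of 5 endothelial markers listed Pecam1 rose (0.96) and Vwf fell (-0.20), and of 2 B cell markers listed 0 passed. The part of these markers in the results on the superfamily was not tested. In bulk RNA, fewer cells of a type and less RNA per cell cannot be told apart.

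Of the 41 members, 11 passed the test between the groups at an adjusted p under 0.05, which is 26.8% against 21.5% of all 13977 genes tested. The 8 that rose in the libraries labelled Txn1 KO were the receptor genes Tnfrsf26, Tnfrsf1b, Tnfrsf23, Tnfrsf21, Tnfrsf11a and Tnfrsf1a, the ligand gene Tnfsf13 and the antisense Tnfsf13os. They made up 19.5% of the members, beside 11.5% of all genes called higher. The 3 that fell were the ligand genes Tnfsf10 and Tnfsf9 and Traf3ip3, the gene of a protein that binds a TRAF. They made up 7.32% of the members, beside 9.97% of all genes called lower. Only Tnfsf10 among the called members changed by 2-fold or more. The groups did not overlap for 15 members, 36.6% against 36.2% of all genes tested, and these included all 11 called members. The median log2 change was -0.02 over the members and -0.00 over all genes, and the median size of the change was 0.19 and 0.13. Among receptors 6 of 19 rose and 0 fell, among ligands 1 of 11 rose and 2 fell, and of the 7 TRAF genes 0 passed (Traf5 had the smallest p of the TRAF genes). No test compared these classes.

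**Figure D1:**
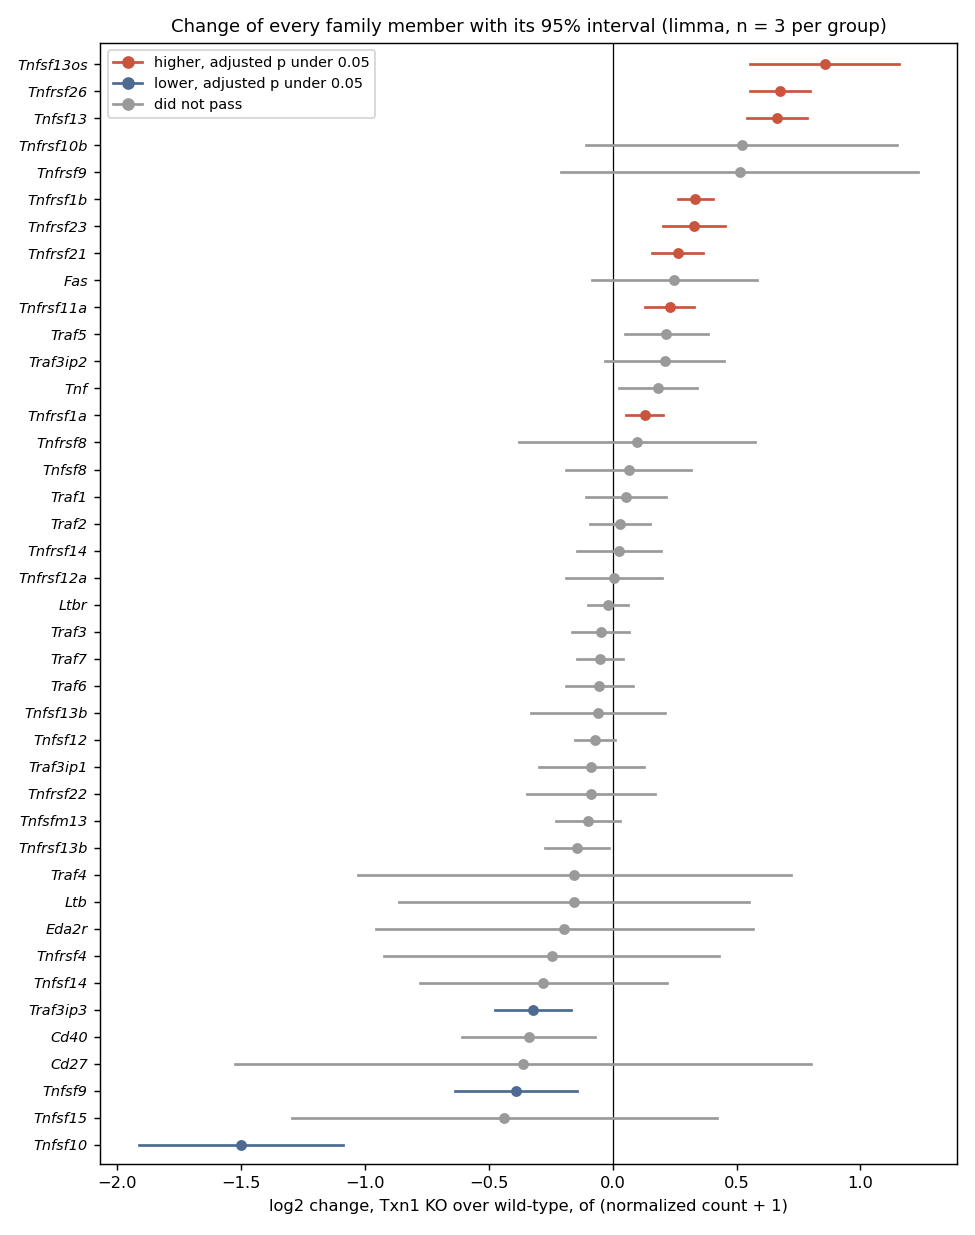
Log2 change of each of the 41 members between the libraries labelled Txn1 KO and wild type, on the scale of normalized count + 1 (horizontal axis), with the limma 95% interval as a line. The 8 members in red rose and the 3 in blue fell, and the interval is widest for members with few reads such as Cd27 (-1.52 to 0.80).

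Levels between genes were compared as normalized counts per kilobase of annotated exon. By this measure the receptors of TNF stood at the top. Tnfrsf1b, which encodes TNF receptor 2, had 5595 ± 207 per kilobase in wild type and Tnfrsf1a, which encodes TNF receptor 1, had 2462 ± 69.5 (SD, n = 3). Tnfsf12, the gene of the ligand TWEAK, followed at 2372 ± 13.0, and its wild-type range overlapped that of Tnfrsf1a. Ltbr, the lymphotoxin beta receptor gene, came next at 1074 ± 14.5, apart from its neighbours on both sides. Tnf had 479 ± 40.3 and did not stand apart from Tnfsfm13 above it (484 ± 12.6) or Tnfrsf13b below it (444 ± 24.2). Tnfsf12 and Tnfsfm13 share 731 exon bases on the same strand, and how such reads were assigned is not stated. The places of these genes in the order, also relative to Tnfrsf1a and Tnf, are therefore uncertain. The lowest member was Eda2r, the gene of an ectodysplasin receptor, at 2.91 ± 0.180 per kilobase. In all, 11 members lay below 100 normalized counts in wild type, and 1 of these, Tnfsf13os, passed the test.

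**Figure D2:**
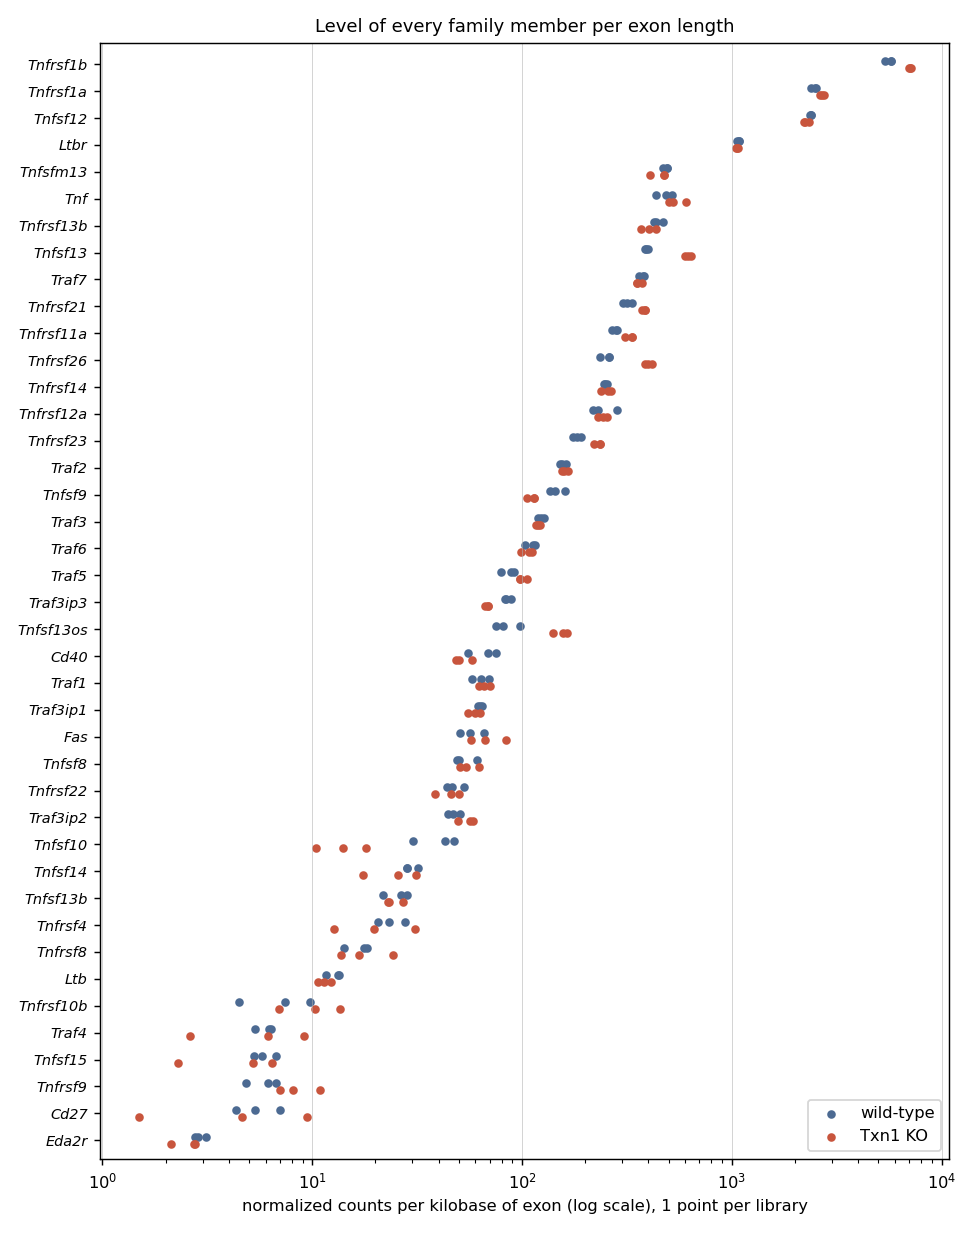
Level of each member as normalized counts per kilobase of exon on a log axis, 1 point per library, ordered by the wild-type mean. Tnfrsf1b lies highest at 5595 in wild type, against 7045 under the Txn1 KO label, and Eda2r lowest at 2.91 and 2.54.

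Both genes of TNF receptors rose, while the difference in Tnf did not pass. Tnfrsf1b (ENSMUSG00000028599, chromosome 4, 145213463 to 145246870, minus strand, GRCm38) had 20449.8, 21820.1 and 21816 normalized counts in wild-type replicates 1 to 3, against 26885, 27225 and 26578 under the Txn1 KO label. Every library labelled Txn1 KO lay above every wild-type library by more than the whole spread within either group. The ratio of means was 1.26 (log2 0.33 ± 0.034, SE; limma adjusted p = 1.26e-06). TNF receptor 2 has no death domain and binds TRAF2, and it is best activated by TNF on the cell surface.

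The window around the Tnfrsf1b start is shown because it is the highest member and the only called member whose window held one of the motifs searched. RefSeq windows of 250 bases before to 50 after the start (build GRCm38.p6) were listed for 33 members, 8 of the 11 called ones among them. On either strand, the interferon-stimulated response element GAAANNGAAA matched 3 of the members' 35 windows (Tnfrsf14, Tnfrsf1b and Tnfsf13b) and 3.44% of all 32851 windows. The antioxidant response element core TGACNNNGC matched 7 of 35 and 12.4% of all, and the kappaB motif matched 4 of 35 (Ltb, Tnfrsf8, Tnfrsf9 and Traf3) and 5.8% of all. In the Tnfrsf1b window, chr4:145246821-145247120 on the minus strand, the capitals mark the match to the interferon-stimulated response element, on the opposite strand at positions -10 to -1 from the start. A match is a likeness of letters and shows no binding.
Tnfrsf1b: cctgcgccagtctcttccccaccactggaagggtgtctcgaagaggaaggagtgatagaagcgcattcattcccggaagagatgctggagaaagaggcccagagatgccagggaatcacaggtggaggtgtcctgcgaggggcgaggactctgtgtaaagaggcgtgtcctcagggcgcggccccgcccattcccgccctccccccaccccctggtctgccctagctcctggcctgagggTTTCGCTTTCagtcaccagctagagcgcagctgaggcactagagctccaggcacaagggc

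Tnfrsf1a (ENSMUSG00000030341, chromosome 6, 125349362 to 125362484, plus strand) had 6518, 6176 and 6443 normalized counts in wild type, against 6806, 6987 and 7145 under the Txn1 KO label. The groups did not overlap, but the gap between the nearest libraries was smaller than the spread within each group. The ratio was 1.09 (log2 0.13 ± 0.035, SE; limma adjusted p = 0.0139), and the call was lost without wild-type replicate 2 (0.11, adjusted p = 0.0664). TNF receptor 1 carries a death domain and is present on most cell types. Per kilobase, the level of Tnfrsf1b over that of Tnfrsf1a was 2.13, 2.40 and 2.30 in wild type, against 2.68, 2.64 and 2.52 under the Txn1 KO label, a ratio chosen for display after its values were seen and not tested.

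Tnf (chromosome 17) had 847, 793 and 715 normalized counts in wild type, against 823, 863 and 991 under the Txn1 KO label, so the groups overlapped. On the log2 scale it differed by 0.18 (95% interval 0.02 to 0.34, limma adjusted p = 0.0965). Without wild-type replicate 1 it passed (0.24, adjusted p = 0.0491). Ltb, which encodes lymphotoxin beta, was at 16.1 to 20.4 normalized counts in all libraries. Ltbr, whose product binds lymphotoxin and LIGHT, had 2489, 2548 and 2549 in wild type, against 2502, 2518 and 2469.6 under the Txn1 KO label. That difference of -0.02 had an interval of -0.10 to 0.06. LIGHT itself, encoded by Tnfsf14, was at 32.3 to 59.1, and Tnfrsf14, the gene of its other receptor HVEM, had a log2 difference of 0.02 (interval -0.15 to 0.19).

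Tnfsf10, which encodes the death ligand TRAIL and is known as an interferon-inducible gene, showed the largest change of the 41 members. Tnfsf10 (ENSMUSG00000039304, chromosome 3, 27317028 to 27342427, plus strand) had 159, 226 and 251 normalized counts in wild-type replicates 1 to 3, against 74.2, 94.7 and 55.2 under the Txn1 KO label. The lowest wild-type library, replicate 1, lay above the highest of the other group, but this gap was smaller than the spread within wild type. The ratio of means was 0.352 (log2 -1.50 ± 0.19, SE; limma adjusted p = 2.22e-05). Over the 16 alternative settings the log2 change ran from -1.69 to -1.30, and each setting kept the call. In the same libraries 6 of 8 stromal markers fell (median log2 change of the list -0.93), while Pdgfrb (0.03) and Cxcl12 (0.01) did not pass. The relation of these markers to Tnfsf10 was not tested.

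Its window, chr3:27316827-27317126 on the plus strand, is shown as that of the most changed member. It held none of the 3 motifs as spelled, which says only that those letters are not in these bases, so no base is in capitals.
Tnfsf10: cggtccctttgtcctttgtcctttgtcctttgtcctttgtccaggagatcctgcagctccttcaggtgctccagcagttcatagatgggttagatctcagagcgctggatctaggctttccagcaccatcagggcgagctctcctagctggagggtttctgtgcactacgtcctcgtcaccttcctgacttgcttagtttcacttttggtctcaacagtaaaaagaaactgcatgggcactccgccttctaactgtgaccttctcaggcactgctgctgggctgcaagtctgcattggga

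Of 4 genes of receptors that bind TRAIL or resemble those that do, Tnfrsf26 and Tnfrsf23 rose, and Tnfrsf10b and Tnfrsf22 did not pass. Tnfrsf10b, the mouse death receptor for TRAIL, had 53.0, 40.4 and 24.3 normalized counts in wild type, against 74.2, 56.5 and 37.7 under the Txn1 KO label. These groups overlapped, and the log2 difference of 0.52 (interval -0.11 to 1.15) did not pass (limma adjusted p = 0.247). Tnfrsf22 and Tnfrsf23 encode decoy receptors that bind TRAIL and lack a death domain, and Tnfrsf26 encodes a related receptor. The 3 genes lie side by side on chromosome 7, all on the minus strand.

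Tnfrsf26 (ENSMUSG00000045362, 143607659 to 143628722) had 834, 758 and 836 normalized counts in wild type, against 1242, 1288 and 1346 under the Txn1 KO label, a ratio of 1.60 (log2 0.67 ± 0.057, SE; limma adjusted p = 1.50e-07). Tnfrsf23 (ENSMUSG00000037613, 143665809 to 143685872) had 691, 760.0 and 721 and then 927, 928 and 873, a ratio of 1.26 (log2 0.33 ± 0.059, SE; limma adjusted p = 0.000570). For both genes the groups stood clearly apart. Tnfrsf22, between them (143634806 to 143649661), had 185, 222 and 195 in wild type, against 194, 211 and 163 under the Txn1 KO label. Its groups overlapped, with a log2 difference of -0.09 and an interval of -0.35 to 0.17. The difference in response between the 3 neighbours was not tested. An antisense RNA of this cluster, E230032D23Rik, overlaps exons of Tnfrsf26 (107 bases, 3.33% of its exon length) and of Tnfrsf23 (164 bases, 4.14%). It went from 40.1 ± 7.83 to 65.6 ± 3.78 normalized counts (SD, n = 3 each; log2 0.71, limma adjusted p = 0.0255). The sources used here do not state whether counting used strand, so reads of overlapping exons cannot be assigned to a strand.

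**Figure D3:**
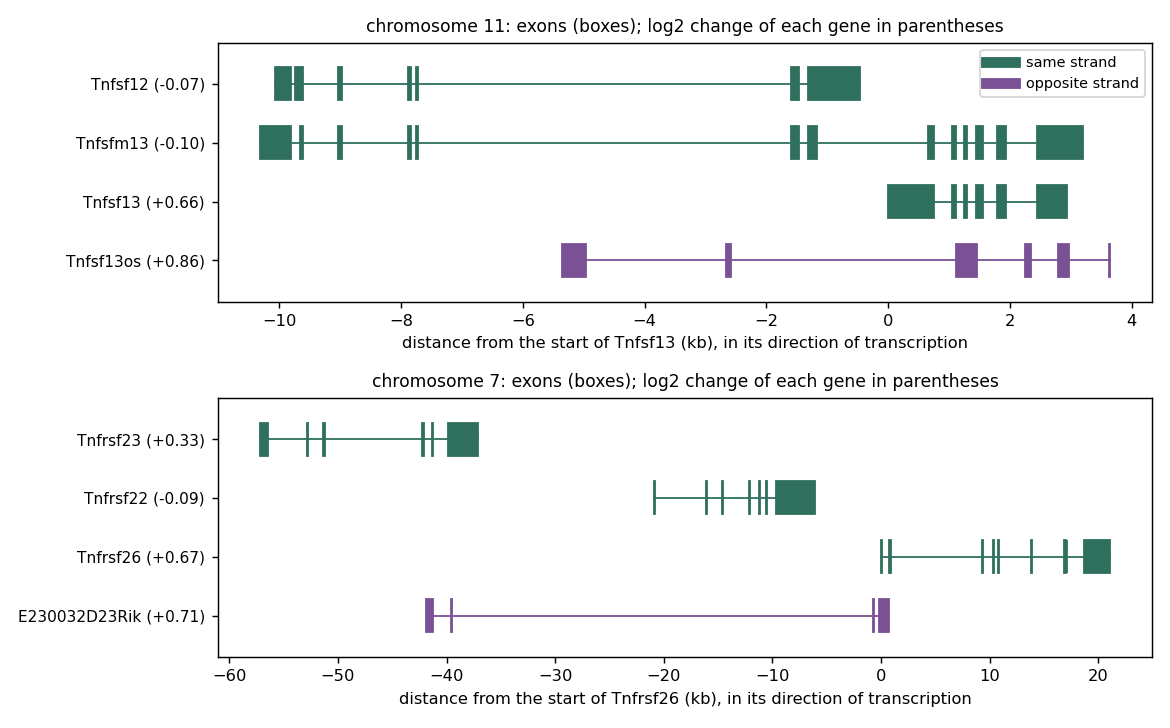
Exons (boxes) of the clusters on chromosome 11 (top) and chromosome 7 (bottom), as kilobases from the start of Tnfsf13 and of Tnfrsf26 in their direction of transcription, green for the same strand and purple for the opposite. The log2 change of each gene stands in parentheses: Tnfsf13 (0.66) and its antisense partner (0.86) rose while Tnfsf12 (-0.07) and Tnfsfm13 (-0.10), which share exons, did not pass.

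Tnfsf13, which encodes APRIL, a survival factor for plasma cells and B cells, rose. Tnfsf13 (ENSMUSG00000089669, chromosome 11, 69682846 to 69685784, minus strand) had 633, 635 and 655 normalized counts in wild type, against 1049, 1016 and 982 under the Txn1 KO label. The wild-type libraries lay within a narrow range, far below the others. The ratio was 1.59 (log2 0.66 ± 0.056, SE; limma adjusted p = 1.53e-07). Tnfsf13os (ENSMUSG00000085890, 69682138 to 69691141, plus strand), the RNA of the opposite strand, had 89.7, 83.1 and 109 and then 155, 173 and 182, a ratio of 1.81 (log2 0.86 ± 0.14, SE; limma adjusted p = 0.000280). It too was higher in 3 of 3 libraries. Exons of the antisense RNA cover 221 bases, or 13.5%, of the Tnfsf13 exons, and as the use of strand is not stated, both values are uncertain for each other's reads.

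The neighbours on the same strand did not pass the test. Tnfsf12 had 3572, 3596 and 3611 normalized counts in wild type, against 3373, 3344 and 3541 under the Txn1 KO label, which did not overlap, yet the log2 difference of -0.07 did not pass (interval -0.15 to 0.01, limma adjusted p = 0.203). Tnfsfm13 is the read-through gene that joins Tnfsf12 to Tnfsf13. It shares 983 bases, 60.0% of the Tnfsf13 exons, and 731 bases, 48.2% of the Tnfsf12 exons. Its values were 1092, 1049 and 1102 in wild type, against 1059.5, 1059 and 915 under the Txn1 KO label, and the groups overlapped (log2 -0.10, interval -0.23 to 0.03). The sources used here do not state how reads of shared exons were assigned, so the split between these genes is uncertain. Tnfrsf12a, the gene of the TWEAK receptor Fn14, had a log2 difference of 0.01 (interval -0.19 to 0.20).

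Tnfsf13b, which encodes BAFF, the B cell survival factor most like APRIL, was at 149.8 to 195 normalized counts in wild type, against 157 to 186 under the Txn1 KO label. That difference of -0.06 (log2) had an interval of -0.33 to 0.21. Tnfrsf13b encodes TACI, a receptor for both ligands. It had 1203, 1336 and 1238 in wild type, against 1050.3, 1147 and 1227 under the Txn1 KO label, with replicate 3 of the latter inside the wild-type range. Its log2 difference of -0.14 (interval -0.27 to -0.01) did not pass (limma adjusted p = 0.113), and it passed without that library (-0.20, adjusted p = 0.0244).

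Tnfrsf11a and Tnfrsf21 rose by similar sizes. Tnfrsf11a encodes RANK, the receptor through which RANK ligand drives precursors to become osteoclasts. Tnfrsf11a (ENSMUSG00000026321, chromosome 1, 105780718 to 105847981, plus strand) had 1693, 1688 and 1607 normalized counts in wild type, against 1856, 1999 and 1997 under the Txn1 KO label. The groups did not overlap, and the ratio was 1.17 (log2 0.23 ± 0.047, SE; limma adjusted p = 0.00161). The 5 osteoclast markers rose in the same libraries, from Atp6v0d2 (log2 0.18) to Ocstamp (log2 2.16), and their relation to Tnfrsf11a was not tested. Ocstamp was near the floor in wild type, at 9.22 to 16.3 normalized counts. The Tnfrsf11a window, chr1:105780473-105780772 on the plus strand, is shown beside these markers and held no match to the 3 motifs.
Tnfrsf11a: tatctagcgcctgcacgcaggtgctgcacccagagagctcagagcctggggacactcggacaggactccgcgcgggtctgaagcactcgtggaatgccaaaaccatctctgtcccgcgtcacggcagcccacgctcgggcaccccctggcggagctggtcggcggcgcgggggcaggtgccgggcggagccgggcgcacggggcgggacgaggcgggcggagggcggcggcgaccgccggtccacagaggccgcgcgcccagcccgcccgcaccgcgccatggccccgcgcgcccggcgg

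Tnfrsf21 (ENSMUSG00000023915, chromosome 17, 43016555 to 43089189, plus strand) encodes death receptor 6. It had 1305, 1243 and 1368 normalized counts in wild type, against 1528, 1587 and 1579 under the Txn1 KO label, a ratio of 1.20 (log2 0.26 ± 0.049, SE; limma adjusted p = 0.000831). All 3 libraries labelled Txn1 KO lay above the wild-type range. Fas, another death receptor gene, had 104, 117 and 136 in wild type, against 137, 118 and 172 under the Txn1 KO label. Its groups overlapped (log2 0.25, interval -0.08 to 0.58, limma adjusted p = 0.303).

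Among ligands and receptors of T cell co-stimulation, Tnfsf9 passed and the others did not. Tnfsf9 (ENSMUSG00000035678, chromosome 17, 57105325 to 57107757, plus strand) encodes the ligand of CD137. It had 176, 206 and 184 normalized counts in wild type, against 137, 147 and 147 under the Txn1 KO label. The groups did not overlap, and the ratio was 0.760 (log2 -0.39 ± 0.12, SE; limma adjusted p = 0.0239). An RNA of the opposite strand, Gm11110, shares 192 bases with it (14.9% of its exons) and differed by -0.19 (log2), which did not pass. The call was lost without wild-type replicate 2 (log2 -0.33, adjusted p = 0.115) or replicate 1 labelled Txn1 KO (-0.36, adjusted p = 0.0731). It was also lost, at a change of at least the same size, without wild-type replicate 3 (-0.41, adjusted p = 0.0663) and without both libraries with hepatocyte transcripts (-0.45, adjusted p = 0.0700). Tnfrsf9, which encodes CD137 itself, was near the floor at 13.2 to 29.6 normalized counts, with a log2 difference of 0.51 and an interval of -0.21 to 1.23.

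Cd40 encodes the receptor by which T cells activate macrophages. It had 187, 255 and 236 normalized counts in wild type, against 165, 171 and 196 under the Txn1 KO label, where wild-type replicate 1 lay inside the range of the other group. The log2 difference was -0.34 (interval -0.61 to -0.07, limma adjusted p = 0.0675). It passed without wild-type replicate 1 (-0.47, adjusted p = 0.0163), without replicate 3 labelled Txn1 KO (-0.41, adjusted p = 0.0300) and without both libraries with hepatocyte transcripts (-0.54, adjusted p = 0.0224). Tnfsf8, the CD30 ligand gene, had a log2 difference of 0.06 (interval -0.19 to 0.32). Tnfrsf8, Tnfrsf4, Cd27, Tnfsf15 and Eda2r were at 84.2 normalized counts or below in every library, and their intervals all spanned 0.

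**Figure D4:**
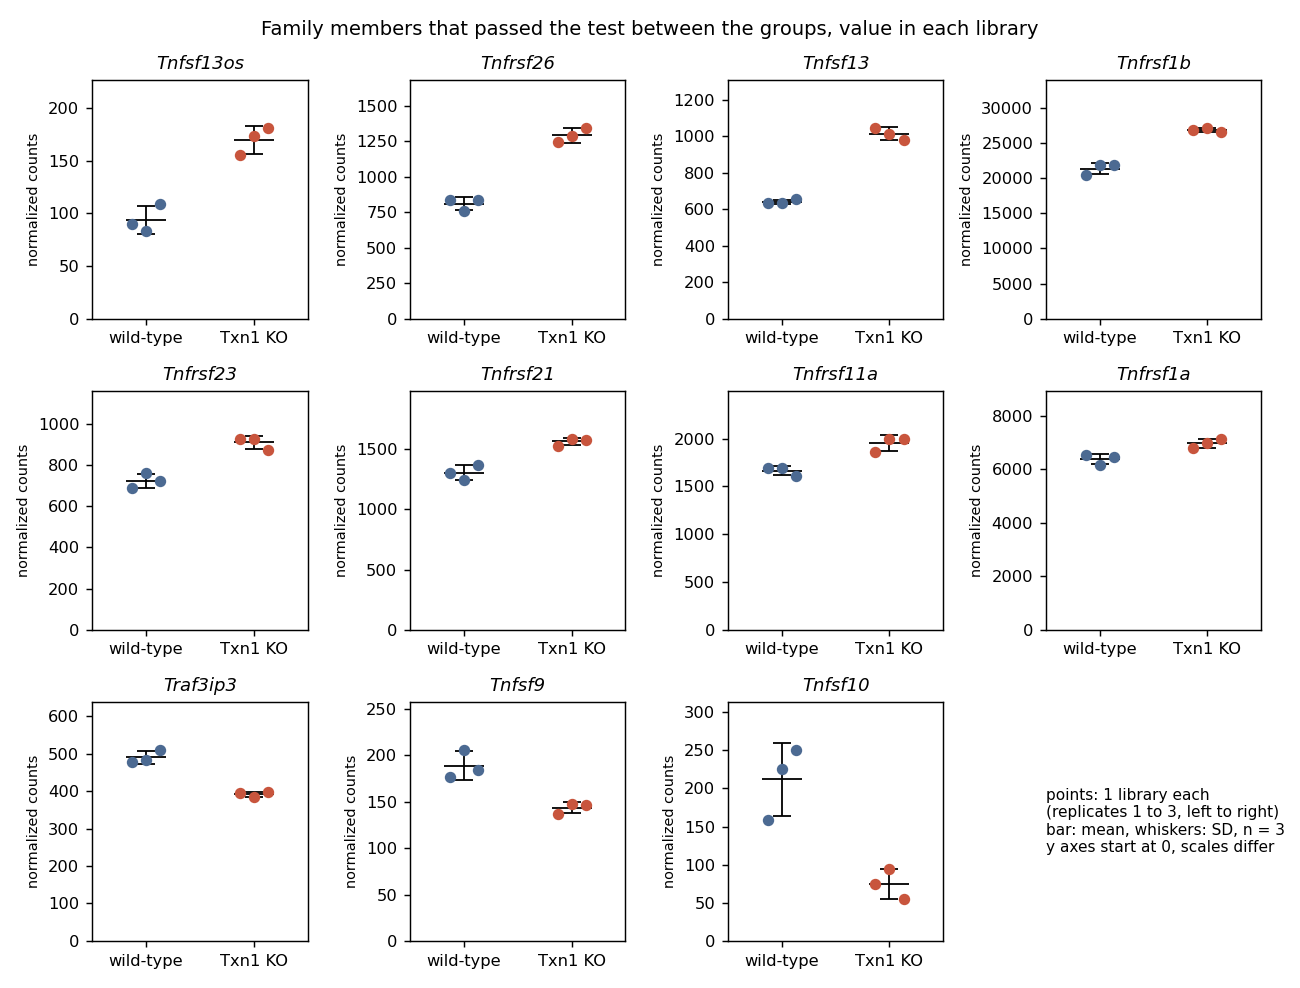
Normalized counts of the 11 members that passed the test, 1 point per library (replicates 1 to 3 from left to right), with the mean and SD (n = 3); each axis starts at 0 and scales differ. The groups do not overlap in any panel, and the spread relative to the mean is widest in Tnfsf10 (159 to 251 in wild type, 55.2 to 94.7 in the libraries labelled Txn1 KO).

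The TRAF genes, some of whose products link these receptors to NF-kB and kinase signalling, did not pass. Traf7, the highest by normalized counts, had 2221, 2119 and 2242 in wild type, against 2074, 2084 and 2200.4 under the Txn1 KO label (log2 -0.05, interval -0.14 to 0.04). Traf2, which TNF receptor 2 recruits, differed by 0.03 (interval -0.09 to 0.15). Traf3, a brake on noncanonical NF-kB, differed by -0.05 (-0.16 to 0.07), and Traf6, which also serves Toll-like receptors, by -0.05 (-0.19 to 0.08). Traf5 was at 361 to 417 in wild type, against 447 to 479.9 under the Txn1 KO label without overlap, and its log2 difference of 0.22 missed the threshold (limma adjusted p = 0.0621). Traf1 differed by 0.05, and Traf4, at 8.61 to 30.1 normalized counts, by -0.15.

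Traf3ip3, which encodes a membrane protein that binds TRAF3, fell. Traf3ip3 (ENSMUSG00000037318, chromosome 1, 193175453 to 193201703, minus strand) had 478, 483 and 511 normalized counts in wild type, against 395, 385 and 397 under the Txn1 KO label. The groups were well separated, and the ratio was 0.800 (log2 -0.32 ± 0.072, SE; limma adjusted p = 0.00354). A gene on the opposite strand, A130010J15Rik, shares 420 bases with it (7.30% of its exons) and differed by 0.08 (log2), which did not pass. Traf3ip2, which encodes the adaptor of interleukin-17 receptors, and Traf3ip1, a cilium gene, differed by 0.21 and -0.09 and did not pass.

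Of the 30 members not called, 18 had a 95% interval within 0.5 of 0 on the log2 scale. A p that missed the threshold does not show that the groups were alike. By position, 7 members lie on chromosome 4, where Txn1 lies. The nearest, Tnfsf15 and Tnfsf8, are 5.77 and 5.88 Mb away and did not pass, and the 1 that was called, Tnfrsf1b, is 87.3 Mb away. On chromosome 10, where Lyz2 with the Cre insertion lies, the only member is Traf3ip2, 77.6 Mb away, which did not pass. An effect of position was not tested.

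Genes that act with these receptors were taken from 5 lists, of which 50 of 56 genes were tested. There, 11 rose (22%) and 4 fell (8%), beside 11.5% and 9.97% of all genes tested, and the lists were not tested against other genes. Among proteases that shed ligands and receptors, and their partners, 1 of 7 rose and 0 fell: Adam17, which encodes the protease that releases TNF, went from 4657 ± 191 to 5147 ± 97.9 normalized counts (SD, n = 3 each; log2 0.14, limma adjusted p = 0.0112; 0.0521 without wild-type replicate 1 and 0.0871 without both libraries with hepatocyte transcripts). Adam10, which encodes a related protease, differed by 0.07 and did not pass. Of superfamily genes outside the symbol rule, 2 of 8 were tested and 0 passed: Relt (log2 0.27, limma adjusted p = 0.121) and Edaradd (-0.06).

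Of 12 adaptor and cell death genes, 2 rose (16.7%) and 1 fell (8.33%), near the shares of all genes (11.5% and 9.97%). Mlkl, the executioner of necroptosis, rose by 0.19 (log2; limma adjusted p = 0.0116) and Birc3, which encodes a ubiquitin ligase bound to TRAF2, by 0.15 (0.0220). Ripk1, the kinase that TNF receptor 1 recruits, fell by 0.19 (log2; limma adjusted p = 0.0196). Each of these 3 calls was lost when some single libraries were left out, Mlkl without wild-type replicate 3 (adjusted p = 0.0533) or replicate 1 labelled Txn1 KO (0.0541), Ripk1 without wild-type replicate 3 (0.129) or replicates 1 (0.0535) and 2 (0.0548) labelled Txn1 KO, and Birc3 without wild-type replicate 1 (0.0581) or 3 (0.0808) or replicates 2 (0.0641) and 3 (0.0536) labelled Txn1 KO. Birc3 also lost its call without both libraries with hepatocyte transcripts (0.0857). Tradd, Fadd and Casp8, which join death domains to caspase activation, differed by 0.07, 0.01 and 0.06 and did not pass.

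Of 21 genes of ubiquitin and kinase complexes, 7 rose (33.3%) and 2 fell (9.52%), beside 11.5% and 9.97% of all genes. Ikbkg, which encodes the regulatory subunit NEMO of the IkB kinase, went from 2033 ± 133 to 2420 ± 126 normalized counts (SD, n = 3 each; log2 0.25, limma adjusted p = 0.00195). Tnfaip3, which encodes A20, a feedback inhibitor of TNF signalling, rose by 0.25 (limma adjusted p = 0.00439). Rbck1, which encodes HOIL-1 of the linear ubiquitin ligase, fell by 0.20 (log2; limma adjusted p = 0.00326). Map3k14, the kinase NIK of noncanonical NF-kB, rose by 0.19 (limma adjusted p = 0.0225), a call lost without wild-type replicate 2 (0.0726) or 3 (0.0867), replicate 2 labelled Txn1 KO (0.0735) or both libraries with hepatocyte transcripts (0.0514).

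Of 8 NF-kB subunit and inhibitor genes, 1 rose and 1 fell (12.5% each), near the shares of all genes (11.5% and 9.97%). Nfkbie, an inhibitor gene, rose by 0.24 (limma adjusted p = 0.00531; 0.0581 without both libraries with hepatocyte transcripts). Rel, the c-Rel subunit, fell by 0.28 (log2; limma adjusted p = 0.0168), and this call was lost without wild-type replicate 2 (0.0947) or 3 (0.0804) or replicate 1 (0.0746) or 2 (0.0918) labelled Txn1 KO. Rela and Nfkb1, the subunits of the main dimer, differed by -0.01 and -0.02. Over the 5 lists together, 5 genes rose without wild-type replicate 1, 5 without wild-type replicate 3 and 7 without replicate 3 labelled Txn1 KO. In these settings 18.2%, 14.9% and 20.2% of all genes were called in either direction, against 21.5% with all libraries. Of the list genes, 1 fell without wild-type replicate 3 or replicate 1 labelled Txn1 KO, and 2 without replicate 2 of either group.

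**Figure D5:**
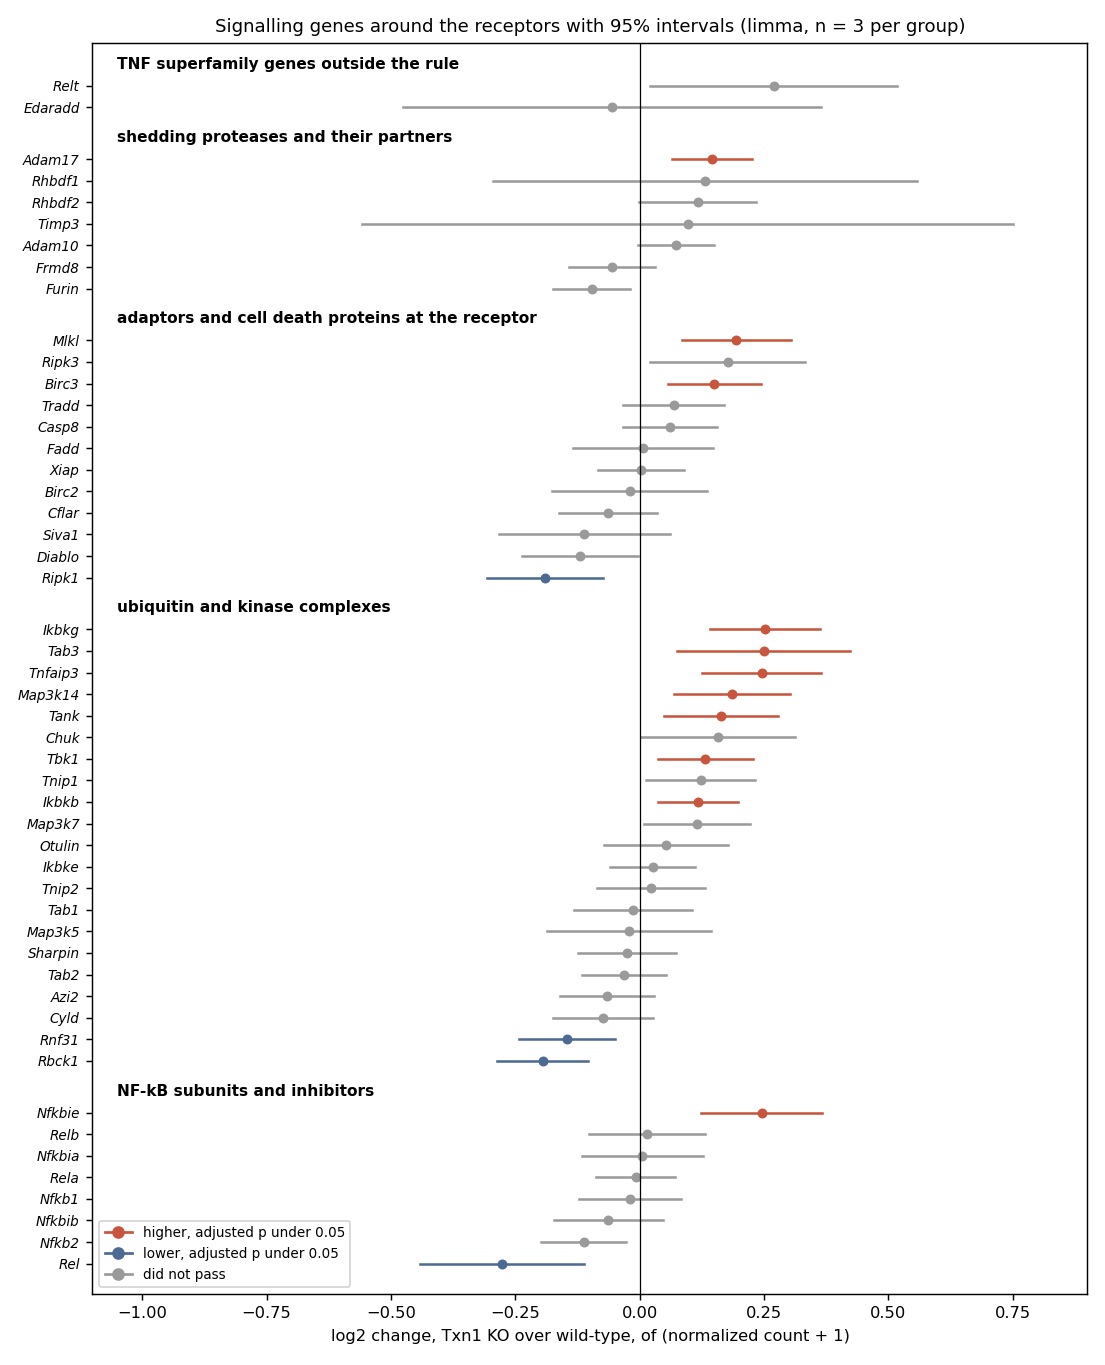
Log2 change with its limma 95% interval for 50 genes of 5 lists around the receptors, libraries labelled Txn1 KO over wild type. The called changes are small: the largest rise is Ikbkg (0.25) and the largest fall Rel (-0.28).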

How the data were processed

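Libraries of polyA RNA from 3 wild-type and 3 Txn1 KO samples were used as the authors deposited them, in 1 table. The submitters' processing notes name STAR 2.5.2b, Trimmomatic 0.36, bcl2fastq 2.20 and DESeq2, with GRCm38 (mm10), while counter, strand use and annotation stay not given in the sources used here. In the deposited signal, each value is reads scaled by a size factor: 100% of values are whole multiples of a step (tolerance 0.01 reads). Log2 fold changes, p-values and adjusted p-values in the table are the authors' own. Control columns carry no group name and were taken as wild type, the only other group.

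Limma 3.58.1 (R 4.3.3, trended prior) was fitted to log2(normalized count + 1) for 13977 genes whose mean reached 10 (28 were left out). This scale understates changes of low genes. A call is a two-sided p under 0.05 after Benjamini-Hochberg adjustment over all genes; ratios are of mean normalized counts, and intervals are 95%. Exon lengths and overlaps came from GENCODE M21. Alternatives included edgeR 4.0.16 (quasi-likelihood) and DESeq2 1.42.0 on recovered reads, the replicate number as a block, and libraries left out. The fit was tested on simulated data. Same-numbered libraries did not deviate together, which with so few libraries does not exclude a shared preparation. The main fit used no pairing. Members, lists and tests were chosen with earlier results of these data known. Named with per-library values are called members and those with a mean of at least 1000; from each list, up to 4 called genes with the smallest p or the 2 highest. Further genes were named after their values were seen.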

Additional observations from a re-analysis of the deposited data

How the results depend on the processing

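The same 11 members were called with limma at pseudocounts of 0.5 and 5, with no filter or a mean of at least 50, with edgeR (2969 genes called) and DESeq2 (2706 genes called) on recovered reads, and in the authors' deposited table, where 2691 genes were called in all. With a threshold of 0.01, 9 members remained (without Tnfrsf1a and Tnfsf9), 1024 genes were higher and 809 lower, and in the 5 lists 3 rose and 1 fell. Leaving out single libraries gave 1197 to 1516 genes higher and 891 to 1304 lower (1394 with all libraries; 891 without wild-type replicate 3), 7 to 9 members higher and 2 to 5 lower (5 without replicate 3 labelled Txn1 KO, with Cd40 and Tnfrsf13b added), and 5 to 9 list genes higher and 1 to 5 lower. Without both libraries with hepatocyte transcripts, 12 of the 41 members were called, and 4 list genes rose. Tnfsf9 was lost there, and Cd40 and Tnfrsf13b were gained. In that setting 2191 of all 13977 genes tested were called (15.7%), against 21.5% with all libraries. Same-numbered libraries did not deviate together (correlations of -0.27, 0.14 and -0.33), and the fit with the replicate block called 2675 genes and the same 11 members. Across the groups the highest correlation was 0.43, between wild-type replicate 1 and replicate 3 labelled Txn1 KO, the libraries with hepatocyte transcripts. Depth limits the lowest members: Cd27 had 3 reads in 1 library.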
